A study of Mus musculus with 8 samples.

Results

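Expression of 7 genes for subunits of the GABA-A receptor (Gabra2, Gabra3, Gabra4, Gabra5, Gabrb1, Gabrb2 and Gabrd, encoding the subunits α2, α3, α4, α5, β1, β2 and δ) was compared in nuclei of cortical GABAergic neurons of mice that did or did not express a mutated receptor for thyroid hormone. The genes were chosen by name, with earlier results of these data known, as subunits of a receptor whose composition switches during development. Their rows were found by symbol among the 55450 genes of the count tables, and all 7 had enough reads to be tested. Each library was made from the RNA of fluorescent nuclei, sorted out of a single frozen cortex of a juvenile mouse. In all mice a Cre driver active in GABAergic neurons switched on a nuclear fluorescent reporter. Control mice were Thra+/+, and mutant mice were Thra+/AMI, that is, they also carried a Cre-dependent Thra allele that encodes a dominant-negative thyroid hormone receptor. The labels do not name the promoter of the Cre driver or give the age in days. The comparison rested on 4 controls, numbered 1 to 4, and 3 mutants, numbered 6 to 8. A further table, labelled mutant 10, held the same counts as mutant 7 in all 21975 genes with a symbol of their own and a count, and both were counted as 1 sample.

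GABA-A receptors are chloride channels built as pentamers, most often of α, β and γ subunits, and they carry fast inhibition in the brain. The α subunit sets the response to GABA and to benzodiazepines, γ subunits help to hold the receptor at the synapse, and δ takes the place of γ in receptors outside the synapse that give a steady, tonic inhibition. As the cortex matures after birth, α2, α3 and α5 become less prominent among its receptors, and synaptic inhibitory currents become faster.

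Total counts were 10747169 to 13804734 per library. The tables did not count bases that genes share: of 1351 protein-coding genes whose span lies wholly within other genes, 1351 were at 0 in all 7 libraries, among them 749 covered by genes of the opposite strand alone, against 24.7% of the 11728 protein-coding genes without overlap. The counts therefore appear to cover whole gene spans, introns included, less any part shared with another gene on either strand. This bears on Gabra5, since 90.5% of its span lies within other genes, and its reads come from the remaining 9.75 kb. For the other 6 genes the shared part was 0% to 4.26%. Libraries also differed with gene length: the deviation of genes from their mean over libraries had a Spearman's rho with genomic span of -0.53 in control 1 and 0.43 in control 4, and of -0.15 to 0.16 in the other 5, across genes, which are not independent replicates. Thra was at 114 ± 9.35 CPM (counts relative to the library total, scaled by TMM factors) in controls (SD, n = 4) and 87.5 ± 9.39 in mutants (SD, n = 3), and did not pass the threshold in edgeR's quasi-likelihood test (adjusted p 0.0543). It did pass in 5 of 8 other analysis settings and in 2 of 7 fits without 1 library. Its log2 fold change ran from -0.48 to -0.31 over these settings and fits. Counts add up both alleles and do not show the mutation. The GABAergic markers Gad1 (520 to 664 CPM over all libraries), Gad2 (367 to 497) and Lhx6 (127 to 174) were well counted in both groups, and 0 of the 5 tested markers of this list passed the threshold; a further one, Dlx1, lies within another gene and was listed at 0.

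In mutants the δ gene Gabrd was 3.49-fold lower, while the α2 gene Gabra2 was 2.02-fold and the α3 gene Gabra3 1.59-fold higher. With edgeR's test and adjustment over all 16448 tested genes, 3 of the 7 passed the threshold of 0.05, 2 higher and 1 lower; over all tested genes the share was 9.42%, of which 4.63% were higher and 4.78% lower. The α4, α5, β1 and β2 genes did not pass, with log2 fold changes from -0.44 to 0.64. The median log2 fold change was -0.08 over the 7 genes and -0.01 over all tested genes. The 2 groups of libraries did not overlap in 4 of the 7 genes, against 22% of all tested genes.

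**Figure D1:**
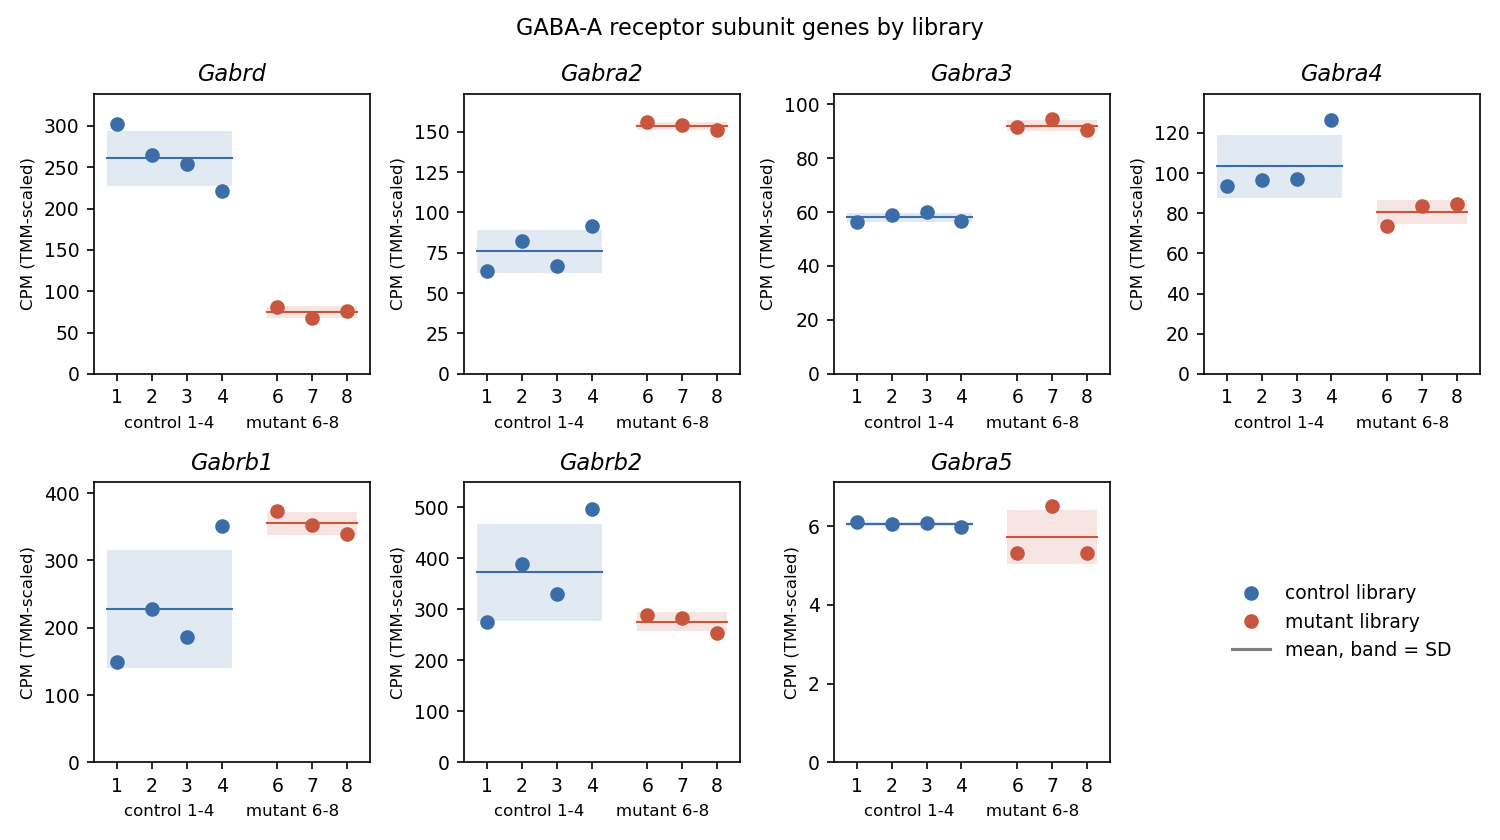
Abundance of each subunit gene in every library, in CPM scaled by TMM factors, with the mean (line) and SD (band) of 4 controls (blue) and 3 mutants (red). Gabrd lies lower in mutants and Gabra2 and Gabra3 lie higher, with no overlap, whereas Gabrb1 and Gabrb2 are spread widely among controls.

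The upstream sequences of the α2 and α3 genes are shown because these are the members that rose. Each runs 5′ to 3′ over the 250 bases before the gene's first RefSeq start (RefSeq, GRCm38.p6). CG dinucleotides, which can be sites of DNA methylation, are in capitals. Gabra2 is at chr5:71095850-71096099 and Gabra3 at chrX:72656920-72657169, both on the minus strand.
Gabra2: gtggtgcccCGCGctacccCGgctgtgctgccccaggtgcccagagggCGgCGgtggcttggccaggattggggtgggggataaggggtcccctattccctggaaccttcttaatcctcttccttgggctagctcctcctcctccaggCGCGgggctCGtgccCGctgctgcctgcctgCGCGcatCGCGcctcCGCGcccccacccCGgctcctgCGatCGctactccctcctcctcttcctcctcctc
Gabra3: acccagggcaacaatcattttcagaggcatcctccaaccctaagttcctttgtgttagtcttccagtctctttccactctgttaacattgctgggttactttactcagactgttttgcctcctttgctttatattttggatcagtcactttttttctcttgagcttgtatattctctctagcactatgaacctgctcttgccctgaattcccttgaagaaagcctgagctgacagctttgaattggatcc
The first of these holds 18 CG dinucleotides and 70% G and C, and the other holds 0 and 42.4%; the median over 32817 such windows of all genes was 6 CG dinucleotides and 52.4%. The 2 genes that rose thus lie behind upstream sequences of different kinds. The half-site bound by thyroid hormone receptors, searched as AGGTCA on both strands, was found in none of the 10 upstream windows of the 6 members in the RefSeq table, and in 14.03% of all windows. Its direct repeat with 4 bases between was in 5 of the 32817 windows and in none of these 10; a match or its lack describes the letters of the window only. Gabrd was not among the matched genes.

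Gabrd (ENSMUSG00000029054.8, GRCm38 chromosome 4, 155384980 to 155398112, minus strand) encodes δ, the subunit of extrasynaptic receptors that respond to low concentrations of GABA and to neurosteroids. It was at 302, 264, 254 and 222 CPM in controls 1 to 4 and at 80.7, 67.3 and 76.3 CPM in mutants 6, 7 and 8. The lowest control was thus far above the highest mutant, and the gap between the groups exceeded the range within either. The log2 fold change was -1.80 (SE 0.14, edgeR adjusted p 1.05e-05), from 261 ± 33.2 CPM in controls (SD, n = 4) to 74.8 ± 6.82 in mutants (SD, n = 3). Only 94 of the 16448 tested genes had a lower log2 fold change. The values rest on 2750 to 3812 reads per control and 733 to 1031 reads per mutant. Gabrd passed in each of the 8 other analysis settings and in each of the 7 fits without 1 library, at log2 fold changes from -1.87 to -1.72.

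Gabra2 (ENSMUSG00000000560.9, chromosome 5, 70957597 to 71095849, minus strand) encodes α2, a synaptic subunit common in the young cortex. It was at 63.5, 82.1, 66.6 and 91.7 CPM in controls 1 to 4 and at 155.9, 154.1 and 151.1 CPM in mutants 6 to 8. All mutants were above all controls, and the 3 mutants lay much closer together than the controls, at a coefficient of variation of 1.59% against 17.5%. The spread of controls depended on the scaling. With the offset from gene length described below, the SD was 4.97 CPM in controls and 2.08 in mutants, against 13.3 and 2.45 without it. The log2 fold change was 1.02 (SE 0.13, edgeR adjusted p 0.000514).

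Gabra3 (ENSMUSG00000031343.13, chromosome X, 72432681 to 72656848, minus strand) encodes α3, another subunit prominent early in cortical development, and its introns hold the miRNA genes Mir767 and Mir105. It was at 56.3, 59.0, 59.9 and 56.9 CPM in controls 1 to 4 and at 91.4, 94.4 and 90.6 CPM in mutants 6 to 8. All mutants were above all controls, and both groups were tight, with coefficients of variation of 2.96% in controls and 2.18% in mutants. The log2 fold change was 0.67 (SE 0.09, edgeR adjusted p 0.0009). The gene is X-linked, and the libraries differed in reads of 4 Y-linked genes, with 3 in mutant 8 and 4 in control 4 against 5094 to 6644 in the other 5. Neither library stood apart in Gabra3, and with a term for Y-linked reads its log2 fold change stayed at 0.67. Gabra2 and Gabra3 passed in each of the 8 other settings and in each fit without 1 library, at log2 fold changes of 0.94 to 1.12 and 0.61 to 0.69.

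The remaining α genes did not pass. Gabra4 (ENSMUSG00000029211.11, chromosome 5, 71569749 to 71658308, minus strand) encodes α4, a frequent partner of δ in forebrain receptors that are insensitive to classical benzodiazepines. It was at 93.5, 96.5, 96.8 and 126.6 CPM in controls 1 to 4 and at 73.8, 83.4 and 84.6 CPM in mutants 6 to 8. The groups did not overlap, but control 4 lay well above the other controls, and the estimate of -0.36 on the log2 scale (SE 0.13) had an edgeR adjusted p of 0.107. Gabra5 (ENSMUSG00000055078.7, chromosome 7, 57407672 to 57510059, minus strand) encodes α5, which is mostly extrasynaptic. It was at 6.11, 6.05, 6.09 and 5.97 CPM in controls 1 to 4 and at 5.32, 6.52 and 5.32 CPM in mutants 6 to 8. The groups overlapped, and the estimate was -0.08 on the log2 scale (SE 0.19, edgeR adjusted p 0.861), with a 95% interval from this SE of -0.47 to 0.30. Its 68 to 80 reads per library come from the part of the gene outside other genes, so these values are not the abundance of the whole gene.

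The β subunits, which form the GABA binding site together with α, were the most widely spread members among controls, with coefficients of variation of 38.3% for Gabrb1 and 25.4% for Gabrb2, against 4.93% and 6.89% in mutants. Gabrb1 (ENSMUSG00000029212.11, chromosome 5, 71658113 to 72149037, plus strand) was at 149, 227, 187 and 351 CPM in controls 1 to 4 and at 374, 352 and 339 CPM in mutants 6 to 8. Control 4 reached the level of the mutants, while the other 3 controls were below all of them. The log2 fold change was 0.64 (SE 0.23, edgeR adjusted p 0.113). Gabrb2 (ENSMUSG00000007653.12, chromosome 11, 42419757 to 42629028, plus strand) encodes β2, a common β subunit of the mature cortex. It was at 275, 389, 331 and 497 CPM in controls 1 to 4 and at 289.8, 283 and 254 CPM in mutants 6 to 8. Control 1 lay within the range of the mutants and the other 3 controls above it, and the log2 fold change was -0.44 (SE 0.18, edgeR adjusted p 0.179).

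In Gabrb1, Gabrb2 and Gabra2 control 1 was the lowest and control 4 the highest of the controls, the same 2 libraries that differed most with gene length, and these genes span 491, 209 and 138 kb. Gabra4, which spans 88.6 kb, had the same lowest and highest control. Gabra3, which spans 224 kb, did not: control 1 was its lowest and control 3 its highest. The cause of the spread among controls was not tested. With an offset fitted to gene length in each library, Gabrb1 was at 213, 221, 201 and 243 CPM in controls 1 to 4 and at 348, 353 and 344 CPM in mutants 6 to 8. Gabrb2 was then at 355, 381, 346 and 384 CPM in controls and at 275, 283 and 254 CPM in mutants. The offset was fitted to remove each library's trend with gene length, and the share of all genes without overlap under it was not computed. The groups no longer overlapped in Gabrb1 or Gabrb2. Both passed under that offset, Gabrb1 at a log2 fold change of 0.66 (edgeR adjusted p 4.9e-05) and Gabrb2 at -0.44 (adjusted p 0.00194), as did Gabra4 at -0.36 (adjusted p 0.0145), so that 6 of the 7 genes passed against 16.7% of tested genes. The offset widened the spread of Gabra3 among controls instead, from an SD of 1.71 to one of 12.4 CPM, and its log2 fold change was 0.61 (adjusted p 0.00429). Leaving out controls 1 and 4 together gave 0.78 for Gabrb1 (adjusted p 2.16e-06) and -0.39 for Gabrb2 (adjusted p 0.00679). Without control 4 alone (14.5% of tested genes passed), Gabrb1 passed at 0.92 (edgeR adjusted p 0.0003). Gabrb2 (-0.27, adjusted p 0.213) and Gabra4 (-0.25, adjusted p 0.12) did not pass there. Without control 1 alone (12.5% of tested genes), Gabrb2 passed at -0.55 (edgeR adjusted p 0.0232) and Gabra4 at -0.40 (adjusted p 0.0444). Gabrb1 did not pass there (0.48, adjusted p 0.124). Where Gabrb1 or Gabrb2 passed, the control left out was the only one that reached the mutants. The wider gap between groups thus followed from leaving it out.

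**Figure D2:**
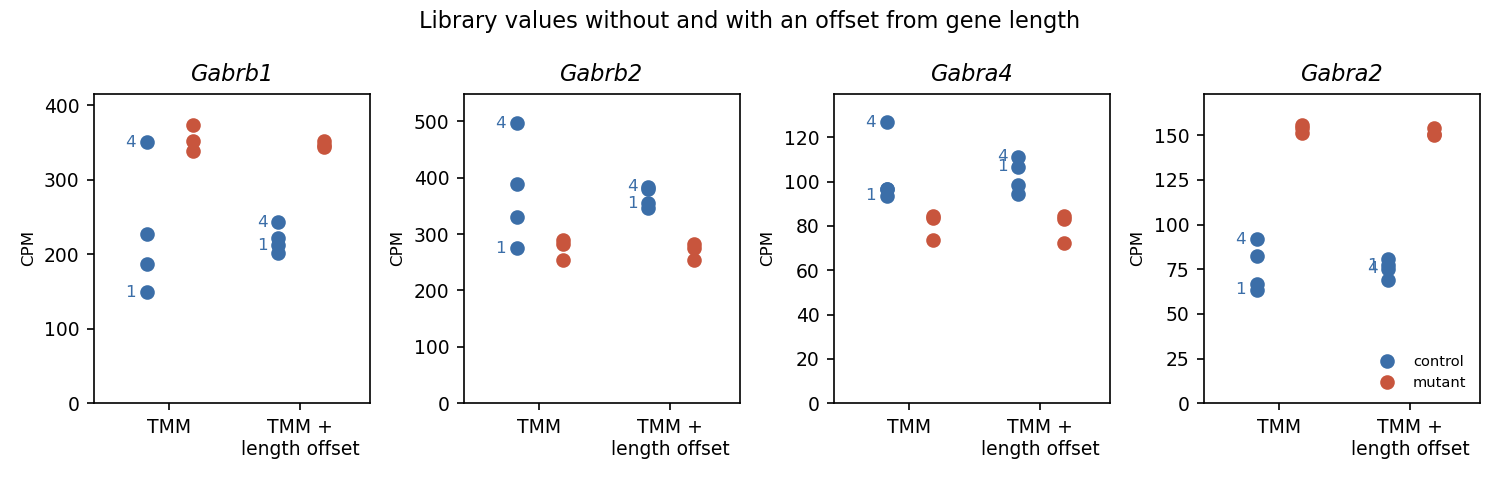
CPM of Gabrb1, Gabrb2, Gabra4 and Gabra2 in 4 controls (blue) and 3 mutants (red), scaled by TMM factors alone and with a further offset from gene length; 1 and 4 mark controls 1 and 4. With the offset, controls 1 and 4 move towards the other controls in Gabrb1 and Gabrb2, and the groups separate.

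Ratios between subunits within a library were also described, without a test. The length by which a gene is divided cancels in the fold of a ratio between groups. A trend with gene length that differs between libraries does not cancel. Gabrd to Gabra4 was at 6.84 in control 1 and 3.71 in control 4, and the cause of this spread was not tested. Expressed as CPM per kb of exon, the ratio of Gabrb2 to Gabrb1 was 3.08 to 4.02 in controls and 1.63 to 1.75 in mutants. Gabra4 to Gabrb1 was at 0.822 to 1.43 in controls and 0.449 to 0.567 in mutants. For Gabrd to Gabra4 the range was 3.71 to 6.84 in controls and 1.71 to 2.31 in mutants. The groups did not overlap in any of these ratios. No other pairs were described. In each pair the first gene had the lower log2 fold change, so a lower ratio in mutants follows from the choice of pairs. The ratios are built from the gene values given above and are not a separate result. The share of other gene pairs without overlap was not computed.

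**Figure D3:**
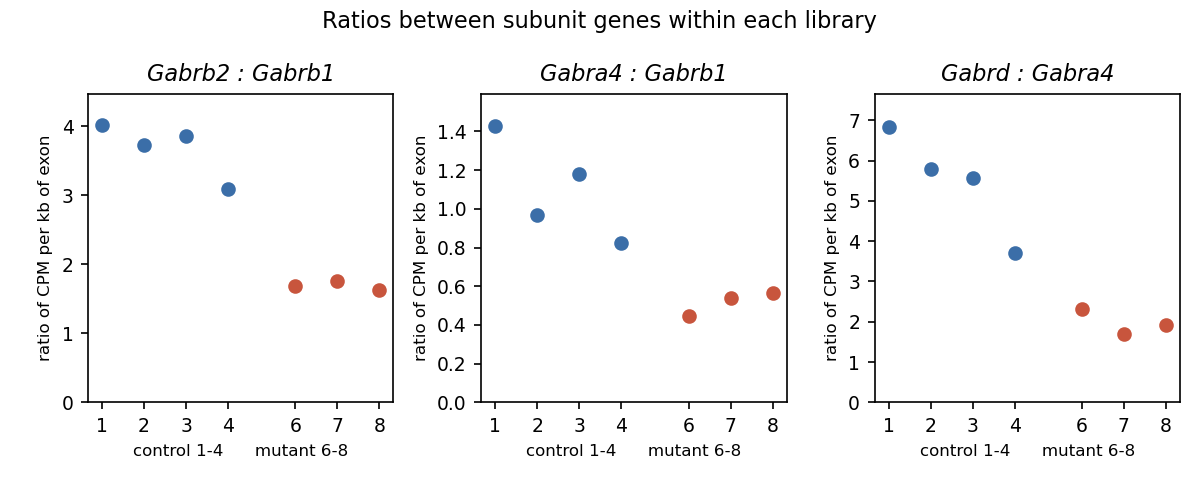
Ratios of CPM per kb of exon between pairs of subunit genes in each of 4 controls (blue) and 3 mutants (red). Each of the 3 ratios is lower in the mutants than in any control. The first gene of each pair has the lower log2 fold change. The ratio of Gabrb2 to Gabrb1 is 1.63 to 1.75 in mutants and 3.08 to 4.02 in controls.

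Levels of the 7 genes among themselves were compared per kb of exon, the union of the exons of a gene. In controls Gabrd was highest, at 90.7 ± 11.5 CPM per kb (SD, n = 4), followed by Gabrb2 at 58.6 ± 14.9. These 2 ranges met, from 77.1 to 105 for Gabrd and from 43.3 to 78.1 for Gabrb2. Gabra4 (16.99 ± 2.56), Gabrb1 (16.5 ± 6.32) and Gabra3 (14.8 ± 0.437) followed, and Gabra2 was at 9.95 ± 1.74. Gabrb1, at 10.8 to 25.3 CPM per kb, overlapped both its neighbours, whereas Gabra4, at 15.4 to 20.8, lay above Gabra3, at 14.4 to 15.3. In mutants Gabrb2 was highest at 43.3 ± 2.99 CPM per kb (SD, n = 3), then Gabrd (26.0 ± 2.37), Gabrb1 (25.7 ± 1.26), Gabra3 (23.5 ± 0.512), Gabra2 (20.1 ± 0.32) and Gabra4 (13.2 ± 0.974). Gabrd and Gabrb1 did not differ beyond their spread there. Gabra5, at 2.04 and 1.92 CPM per kb, cannot be placed, because most of its length was not counted. As the counts include introns, the order depends on the length used: per kb of span outside other genes, Gabrd led in both groups, at 19.9 CPM per kb in controls and 5.69 in mutants, and Gabra3 was lowest, at 0.263 and 0.417.

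For context, 9 other genes of the family were examined. Of these 6 were tested and 3 passed, 2 higher and 1 lower, against 9.42% of all tested genes, and the median log2 fold change of the 6 was 0.54. Gabrg3, for γ3, fell from 1039 ± 327 to 571 ± 51.3 CPM (log2 fold change -0.86, edgeR adjusted p 0.0367). Gabrq, for the rare θ subunit, rose from 2 to 12 reads per control to 78 to 113 reads per mutant, that is, a mean of 0.527 ± 0.327 against 7.58 ± 1.11 CPM; its log2 fold change was 3.82 (SE 0.38, adjusted p 8.84e-05). A single tested gene of the 16448 had a higher log2 fold change than Gabrq. Gabrg1, for γ1, rose from 5.04 ± 1.43 to 9.37 ± 1.25 CPM (0.89, adjusted p 0.0338). Gabrr1, Gabrr2 and Gabrr3 did not pass, at log2 fold changes from -0.42 to 0.89, and Gabra6, Gabre and Gabrp had 0 to 6 reads per library and were not tested. Among the 3 that passed, Gabrq did so in each fit without 1 library. Gabrg1 and Gabrg3 each failed to pass in 5 of the 7 such fits, those that lacked control 2 or 3 or a mutant, at adjusted p-values of 0.0722 to 0.172. The 3 calls fell to 1 in each of those 5 fits, in which 4.35% to 6.44% of all tested genes passed.

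Most subunit genes sit in clusters, and the members were set beside the neighbours examined. On chromosome 5 the order is Gabrg1, Gabra2, Gabra4, Gabrb1, with log2 fold changes of 0.89, 1.02, -0.36 and 0.64. Gabra4 and Gabrb1 start head to head and share 0.221% of the span of Gabra4, and their estimates had opposite signs, although neither passed. On the X chromosome Gabra3 (0.67) and Gabrq (3.82) rose. Gabre, at the same place, had 0 to 1 reads in controls and 2 to 6 in mutants. On chromosome 7 Gabrg3 fell (-0.86) beside Gabra5 (-0.08), which did not pass. Gabrd has no other subunit gene close by.

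**Figure D4:**
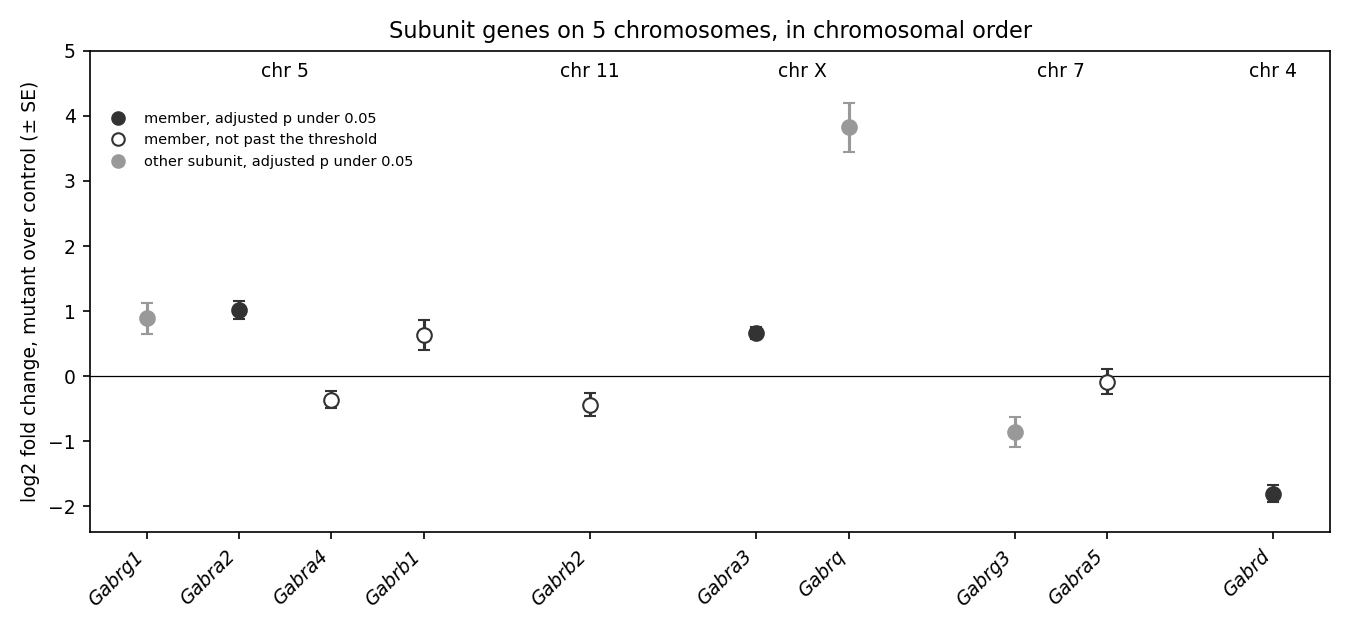
Log2 fold change of mutant over control (edgeR, ± SE) for 10 subunit genes in the order in which they lie on 5 chromosomes; dark points are the 7 members, grey points other subunits, and filled points have an adjusted p under 0.05. Gabrd has the lowest value, -1.80, and Gabrq the highest, 3.82, and both signs occur within the cluster on chromosome 5.

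The next list holds genes for proteins that anchor, cluster or traffic the receptor at inhibitory synapses. Of 24 such genes, all tested, 2 passed, both higher, while 9.42% of all tested genes passed, and the median log2 fold change was -0.03. Hap1, a trafficking protein linked to the recycling of receptors to the surface, rose from 53.2 to 72.7 CPM in controls to 250.5 to 272.3 CPM in mutants, 2.01 higher on the log2 scale (SE 0.13, edgeR adjusted p 3.17e-06). Hap1 lies on chromosome 11 at 100347327 to 100356128, and Thra on the same chromosome at 98740638 to 98769006. Mutants carry the altered Thra allele there, and an effect on Hap1 of sequence linked to that allele was not tested. Shisa7, an auxiliary protein of the receptor, rose from 62.4 ± 10.95 to 90.1 ± 12.7 CPM (0.53, SE 0.15, adjusted p 0.0404). Among the remaining 22, from -0.47 to 0.41, 2 were picked after their values were seen: the scaffold gene Gphn (0.14, adjusted p 0.627) and the adhesion gene Nlgn2 (0.08, adjusted p 0.766) did not pass. Shisa7 no longer passed without control 2, control 3, mutant 7 or mutant 8 (adjusted p 0.0856 to 0.185), and the count was 1 without any of these; it was 4 without control 1 or control 4. With the length offset 6 of the 24 passed, against 16.7% of tested genes. Of 5 genes of the metabotropic GABA-B receptor and its auxiliary subunits, 1 passed, Gabbr2, at -0.79 (adjusted p 0.0369).

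Some markers of GABAergic classes also passed the threshold. Over all tested genes 4.63% were called higher and 4.78% lower. The sorted nuclei are a mixture of classes, and in such bulk samples fewer cells of a type and less RNA per cell cannot be told apart. Of 7 markers of parvalbumin neurons 3 were lower and 0 higher, with Pvalb at 35.7 to 47.8 CPM in controls and 1.29 to 2.58 in mutants. The summed level of the list was 4312 to 7040 CPM in controls and 5533 to 6728 in mutants. Most of this sum came from Erbb4 (2460 to 4082 CPM in controls, 3405 to 4343 in mutants) and Kcnc2 (1093 to 1961 and 1697 to 1901). Neither of these passed, and the sum mainly follows them. Of 6 somatostatin markers 3 were higher and 1 lower, and the sum was 1170 to 1226 CPM in controls and 1563 to 1896 in mutants. Of 6 VIP markers 3 were higher and 1 lower (sums of 353 to 534 and 529 to 552 CPM), and of 6 LAMP5 markers 1 was higher and 1 lower (sums of 827 to 1014 and 974 to 1251 CPM). The part of these shifts in the subunit values was not tested. Markers of glutamatergic neurons summed to 334 to 471 CPM in controls and 276 to 354 in mutants, with 0 of 8 called, and those of astrocytes to 358 to 517 and 300.4 to 343 CPM, with 1 of 7 tested called, Slc4a4 at -0.54. The sums were 159 to 202 and 174 to 210 CPM for oligodendrocytes (1 of 8 called, Mog at 0.93), 66.5 to 82.4 and 80.5 to 85.8 for microglia (0 of 5 tested) and 46.4 to 105.5 and 46.2 to 68.2 for endothelial cells (0 of 6). Gfap and P2ry12 were listed at 0 in every library, and both lie wholly within other genes; the part of other cells in the subunit values was not tested either.

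Across the 7 libraries the log2 CPM of Gabrd had a Pearson's r of -0.97 with Gabra2 and of -0.99 with Gabra3, and Gabra2 and Gabra3 had one of 0.95, as a description of 7 libraries that fall into 2 groups. Gabra4 and Gabrb2 had an r of 0.84 with each other, and Gabrb1 and Gabrb2 one of 0.08. Likeness to other genes was measured over 11796 tested genes whose mean reached 5 CPM. The 3 highest r of so many, over 7 libraries, are high in part by selection and are given as a description. The 3 most like Gabrd were Gm42067, Ankrd9 and Slc29a1 (r of 0.996 to 0.998). Those most like Gabra2 were Gm44644, Fndc3a and Bmper (0.990 to 0.994), and those most like Gabra3 were March8, L1cam and 4930426D05Rik (0.992 to 0.994). For Gabrb1 they were Nrcam, Dpyd and Prr16 (0.995 to 0.996), and for Gabrb2 Luzp2, Robo1 and Adgrb3 (0.989 to 0.999). For Gabra4 they were Tsc22d4, Paip2 and Abat (0.979 to 0.994), and for Gabra5 Tapt1, Lipo3 and Tmem263 (0.941 to 0.975). The values for Gabra5 rest on only 68 to 80 reads per library.

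Over all 16 settings no member changed the sign of its estimate. The members fell into 3 kinds. Gabrd, Gabra2 and Gabra3 passed in every setting run, Gabra5 passed in none of them, and Gabra4, Gabrb1 and Gabrb2 each passed in 5 of the 15 settings other than the one reported. With limma-voom and quality weights 6 of the 7 passed against 19.1% of tested genes, and with 1 surrogate variable 6 against 22.6%. It was 5 without controls 1 and 4 (16.7%), 5 without control 1 (12.5%), 4 without control 4 (14.5%) and 4 with a term for Y-linked reads (10.5%). The count stayed at 3 with DESeq2 (10.7%), RLE factors (9.43%) and no filter on low counts (6.28%). It was also 3 without control 2 (6.44%), control 3 (6.25%), mutant 6 (4.55%), mutant 7 (4.35%) or mutant 8 (4.86%).

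**Figure D5:**
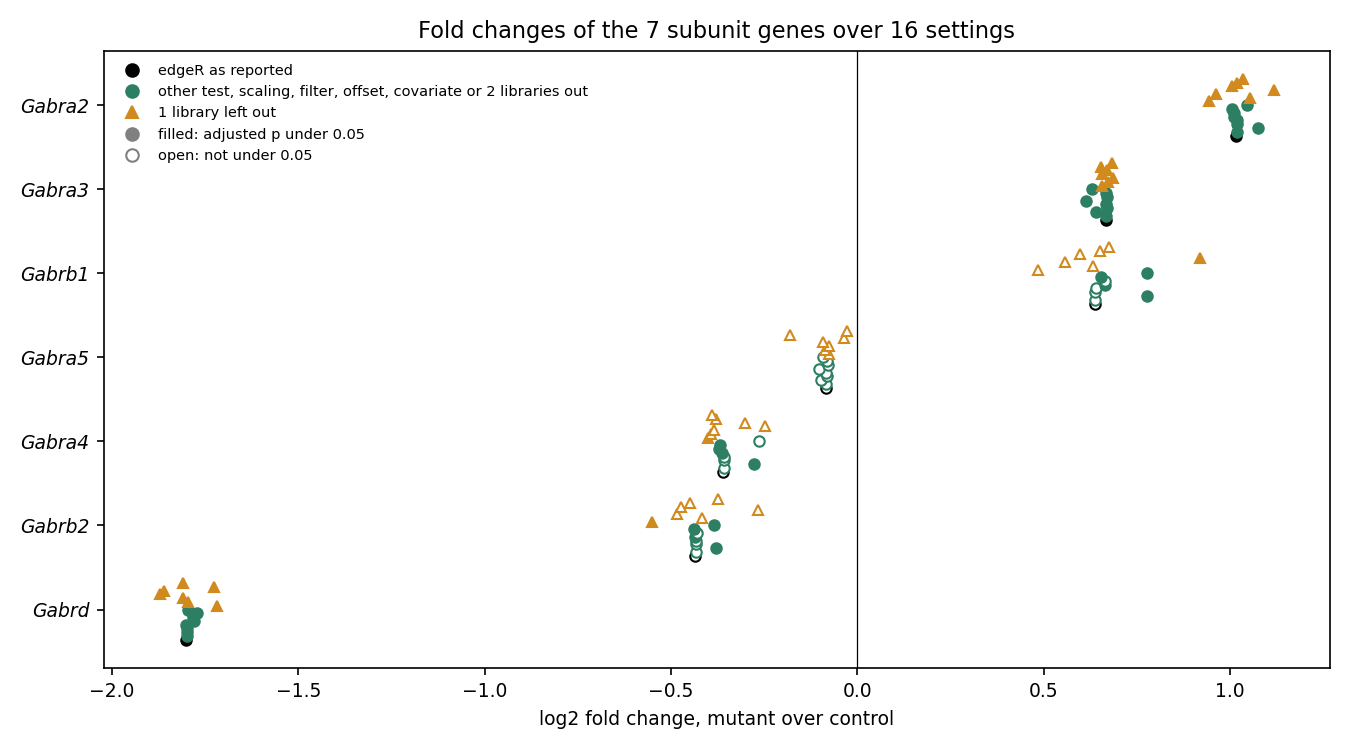
Log2 fold change of mutant over control for the 7 genes in the reported edgeR fit (black), under 8 other settings (green) and with 1 library left out (orange triangles); filled symbols have an adjusted p under 0.05. Gabrd, Gabra2 and Gabra3 are filled throughout, Gabra5 is open throughout, and Gabra4, Gabrb1 and Gabrb2 hold both kinds.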

How the data were processed

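Nuclear RNA of sorted GABAergic nuclei was read as paired-end libraries made with SMART-Seq v4 and Nextera XT, per the labels' protocols. The deposited values are raw counts per gene; the submitters' processing notes name Bowtie2 2.5.3 and GRCm38, and the counting program is not given in the sources used here. Identifiers, spans and symbols were taken from GENCODE M21 (GRCm38). The fit over all genes used edgeR 4.0.16 under R 4.3.3, with filterByExpr (least count 10, least total 15), TMM, robust glmQLFit and glmQLFTest with the group as the only term, two-sided, Benjamini-Hochberg over 16448 genes, threshold 0.05. The SE is the log2 fold change over the root of F. Library totals ran from 10747169 to 13804734 counts, and the labels name no molecular identifiers. Alternatives used DESeq2 1.42.0, limma 3.58.1 (voom with quality weights), RLE factors, no filter, a lowess offset on gene length (span 0.3), a term for Y-linked reads, 1 surrogate variable (sva 3.50.0) and left-out libraries. Named genes are the members, called genes of the 2 context lists, Thra, Pvalb, markers that move with a member, and the 3 genes most correlated with each member. A few genes of the context lists are not reported here, and the lists are counted without them. Members and lists were chosen with earlier results of these data known. The labels give no litter or sequencing batch, and p-values measure the spread between single cortices.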

Additional observations from a re-analysis of the deposited data

Results flagged for a closer look

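A library far from its group was looked for among the 4 controls in 14 genes: the 7 members, the 3 called other subunits, Hap1, Shisa7, Thra and Pvalb. The group of 3 mutants was not examined in this way. One case passed Dixon's 95% critical value for 4 samples. For Gabra4, control 4 had 126.6 CPM while the remaining controls had 93.5 to 96.8 CPM, so that its distance to the nearest of them made up 0.90 of the whole range. Chance flags about 1 in 20 such groups. Leaving control 4 out gave Gabra4 a log2 fold change of -0.25 (edgeR adjusted p 0.12), and under the length offset control 4 had 111 CPM, against 94.3 to 107 CPM in the remaining controls.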

How the results depend on the processing

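The count of called members was 3 as reported, 6 with limma-voom and quality weights, with the length offset and with 1 surrogate variable, and 5 without controls 1 and 4; the counts over all genes were 1549 as reported and 3147, 2753, 3725 and 2778 in these settings (19.1%, 16.7%, 22.6% and 16.7% of tested genes). The trafficking list had 6, 6, 8 and 6 calls there, against 2. Without 1 library the counts ran from 734 to 2347 for all genes, from 3 to 5 for the members, from 1 to 3 for the other subunits and from 1 to 4 for the trafficking list. In the same order of settings, the log2 fold change was 0.78, 0.66, 0.66 and 0.78 for Gabrb1 and -0.38, -0.44, -0.44 and -0.39 for Gabrb2, all past the threshold. Gabra4 passed with limma-voom (-0.28), the length offset (-0.36), 1 surrogate variable (-0.37) and a term for Y-linked reads (-0.37), and not without controls 1 and 4 (-0.26, adjusted p 0.0643). Without 1 library the values ran from -0.40 to -0.25 for Gabra4, from 0.48 to 0.92 for Gabrb1 and from -0.55 to -0.27 for Gabrb2. The cause was not tested. DESeq2, RLE factors and no filter changed no member's call. The order of levels moved for 3 genes in mutants with the longest transcript as length, for 3 in controls and 6 in mutants per kb of span, and for 4 and 7 per kb of span outside other genes, both chosen after seeing the data; without 1 library it moved for 0 to 2. Gabra5 had 68 to 80 reads per library, and its 95% interval spans -0.47 to 0.30. No paired analysis was possible because the groups share no replicate number.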
